A study of Mus musculus with 15 samples.

Results

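Respiratory complex I is the first enzyme of the mitochondrial electron transport chain, and the genes of its nuclear-encoded subunits and of many of its assembly factors have symbols that begin with Nduf. The members described here are the protein-coding genes with such a symbol, 46 of the 54532 genes in the expression table and of its 22046 protein-coding genes. They comprise 36 subunits of the complex, 8 assembly factors (Ndufaf1 to Ndufaf8), and Ndufa4 and Ndufa4l2, which were kept apart because Ndufa4 is now assigned to complex IV and Ndufa4l2 is its paralog. Of the 36 subunits, 7 belong to the catalytic core, 9 are accessory subunits of the matrix arm, 9 of the proximal membrane arm and 11 of the distal membrane arm. A further 5 rows with an Nduf symbol are not protein coding and were not counted as members. Among them is Ndufb1-ps, and no protein-coding row is named Ndufb1, so the subunit Ndufb1 is absent from the 36.

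The libraries were made from hearts of C57BL/6 wild-type mice, aged 8 to 10 weeks, in which the aorta had been constricted (transverse aortic constriction, TAC) to overload the left ventricle. All 3 groups carried the constriction, and no library of an unoperated heart is among those analysed. After 4 weeks the mice were randomised, 15 to a group, and drank water with donepezil (5 mg/kg/day), an inhibitor of acetylcholinesterase, or EVP-6124 (encenicline, 2 mg/kg/day), an agonist of the alpha7 nicotinic acetylcholine receptor, or received physiological saline. The samples are labelled as 8 weeks of TAC. The study asks which way of acting on cholinergic signalling does more for the heart after remodelling, and 5 libraries of each group were sequenced.

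Complex I oxidises NADH in the mitochondrial matrix, passes the electrons along flavin and iron-sulphur centres to ubiquinone and pumps protons across the inner membrane. Its core is built from nuclear and mitochondrially encoded proteins, accessory subunits surround that core, and assembly factors help to build it but are absent from the finished enzyme. Cardiomyocytes are rich in mitochondria and take most of their ATP from oxidative phosphorylation.

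Libraries were grouped by title. The treatment field of donepezil 1 names saline and that of encenicline 1 names donepezil, so each comparison was also made without these libraries and with the groups of that field. That every library came from its own animal is not spelled out in the labels, and the p-values measure the spread between libraries. Recovered read totals were 14496147 to 17176086 per library, and the lowest read count of a member in a library was 178 (Ndufaf2). Donepezil 4 stood apart from the other 14 libraries. Its fibroblast markers (Col1a1, Col3a1, Pdgfra, Dcn and Postn, 5 of 5 detected) summed to 740 FPKM against 118 to 251 FPKM elsewhere. Col1a1, Col3a1 and Postn were at 229, 216 and 155 FPKM there, next saline 3 at 42.8, 53.4 and 32.1 FPKM. Dcn was at 130 FPKM, next encenicline 1 at 122 FPKM, and Pdgfra at 8.80 FPKM, next saline 3 at 6.86 FPKM. The FPKM values of donepezil 4 had the lowest sum (361640), and its mitochondrially encoded genes took the smallest share of reads (17.4% against 19.5 to 27.0%). Markers of cardiomyocytes (6 of 6 detected, summed level 9810 to 16203 FPKM) were abundant in every library.

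Promoters of 4 members are printed here because these members carry the patterns described below. Ndufs3 and Ndufs8 were the core subunits that followed the other subunits most closely, Ndufaf4 is the assembly factor with the largest difference between the drug groups, and Ndufa12 is the subunit that departed from the rest. Each sequence is the RefSeq promoter on GRCm38.p6, 300 bases from 250 before to 50 after the annotated start, written 5′ to 3′ on the gene's strand. Capitals mark matches to letters associated with the factors NRF1 (GCGC, any base, then TGCGC), YY1 (AANATGGC) and ETS family members (CCGGAAG), searched on both strands, and none of the marked matches overlap.
Ndufs3 (chr2:90904672-90904971, minus strand): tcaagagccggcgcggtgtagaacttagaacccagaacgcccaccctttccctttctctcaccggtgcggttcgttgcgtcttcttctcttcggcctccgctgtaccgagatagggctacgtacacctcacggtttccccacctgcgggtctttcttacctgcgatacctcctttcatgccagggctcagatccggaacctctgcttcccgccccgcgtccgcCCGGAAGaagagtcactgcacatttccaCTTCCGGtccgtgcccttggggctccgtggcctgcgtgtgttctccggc
Ndufs8 (chr19:3912725-3913024, minus strand): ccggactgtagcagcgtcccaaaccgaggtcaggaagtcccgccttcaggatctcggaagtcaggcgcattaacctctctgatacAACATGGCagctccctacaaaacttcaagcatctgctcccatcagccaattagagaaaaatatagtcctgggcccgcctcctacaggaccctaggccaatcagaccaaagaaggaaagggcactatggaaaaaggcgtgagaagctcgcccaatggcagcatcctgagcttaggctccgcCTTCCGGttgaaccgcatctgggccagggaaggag
Ndufaf4 (chr4:24897833-24898132, plus strand): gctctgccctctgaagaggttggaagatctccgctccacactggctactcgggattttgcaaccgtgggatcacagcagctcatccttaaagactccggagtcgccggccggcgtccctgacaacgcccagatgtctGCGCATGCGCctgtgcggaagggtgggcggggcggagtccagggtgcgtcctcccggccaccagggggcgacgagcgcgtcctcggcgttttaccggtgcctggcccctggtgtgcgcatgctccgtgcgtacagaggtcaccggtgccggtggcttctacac
Ndufa12 (chr10:94198785-94199084, plus strand): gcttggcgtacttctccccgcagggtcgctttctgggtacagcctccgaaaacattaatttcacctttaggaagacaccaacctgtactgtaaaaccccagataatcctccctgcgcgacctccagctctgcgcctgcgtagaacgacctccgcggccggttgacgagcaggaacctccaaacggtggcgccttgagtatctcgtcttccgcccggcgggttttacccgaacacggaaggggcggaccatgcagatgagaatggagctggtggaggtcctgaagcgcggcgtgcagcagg
The Ndufs3 window holds the ETS letters once on each strand. Ndufs8 holds the YY1 letters and, nearer its start, the ETS letters on the other strand. The NRF1 letters of Ndufaf4, GCGCATGCGC, read the same on both strands and are 1 match. Ndufa12 holds none of the motifs searched, which says only that these letters are not in this window.

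RefSeq promoters were matched by symbol for 40 of the 46 members, and Ndufb9, Ndufaf6, Ndufs1, Ndufa2 and Ndufa4l2 were among those not matched. The YY1 letters were present in 14 of the 40 (35%), against 6.96% of all 27025 promoters and 10.1% of those of protein-coding genes that passed the expression filter. The NRF1 letters were present in 9 (22.5%, against 5.19% and 11.6%). The ETS letters were present in 6 (15%, against 9.93% and 20.2%), and the letters TNAAGGTCA, associated with oestrogen-related receptors, in 1, Ndufb4 (2.5%, against 1.43% and 0.907%). Nuclear subunits of complexes II to V held the ETS letters in 40.6% of 32 promoters and the YY1 letters in 12.5%. These shares describe letters in a window and were not tested.

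All 46 members were detected, and all passed the filter of at least 0.5 FPKM in at least 5 libraries. Mean levels of the subunits over the 15 libraries had a median of 175 FPKM and were lowest for Ndufb2, of the distal membrane arm, at 7.21 FPKM. Those of the assembly factors ran from 5.10 FPKM for Ndufaf2 to 32.8 FPKM for Ndufaf8, with a median of 13.5 FPKM. The medians differed 13.0-fold, and 34 of the 36 subunits lay above the highest assembly factor. The exceptions were Ndufb2 and Ndufab1, the mitochondrial acyl carrier protein.

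FPKM divides reads by a gene length, and here that length equals the union of all exons annotated in GENCODE M21 in 42 of 46 members. It is shorter in Ndufa7, Ndufv3, Ndufv1 and Ndufs8, and it is more than 2 times the main transcript in 11 members. Divided by the longest principal transcript of GENCODE M21, 35 of 36 subunits lay above the highest assembly factor and the medians differed 17.0-fold. Divided by the shortest principal transcript, all 36 did, the lowest at 89.2 FPKM against 14.1 to 35.0 FPKM for the assembly factors, and the medians differed 17.7-fold. Ndufb2 was the gene that moved most, from 7.21 to 89.2 FPKM, so its place among the assembly factors depends on the length used.

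**Figure D1:**
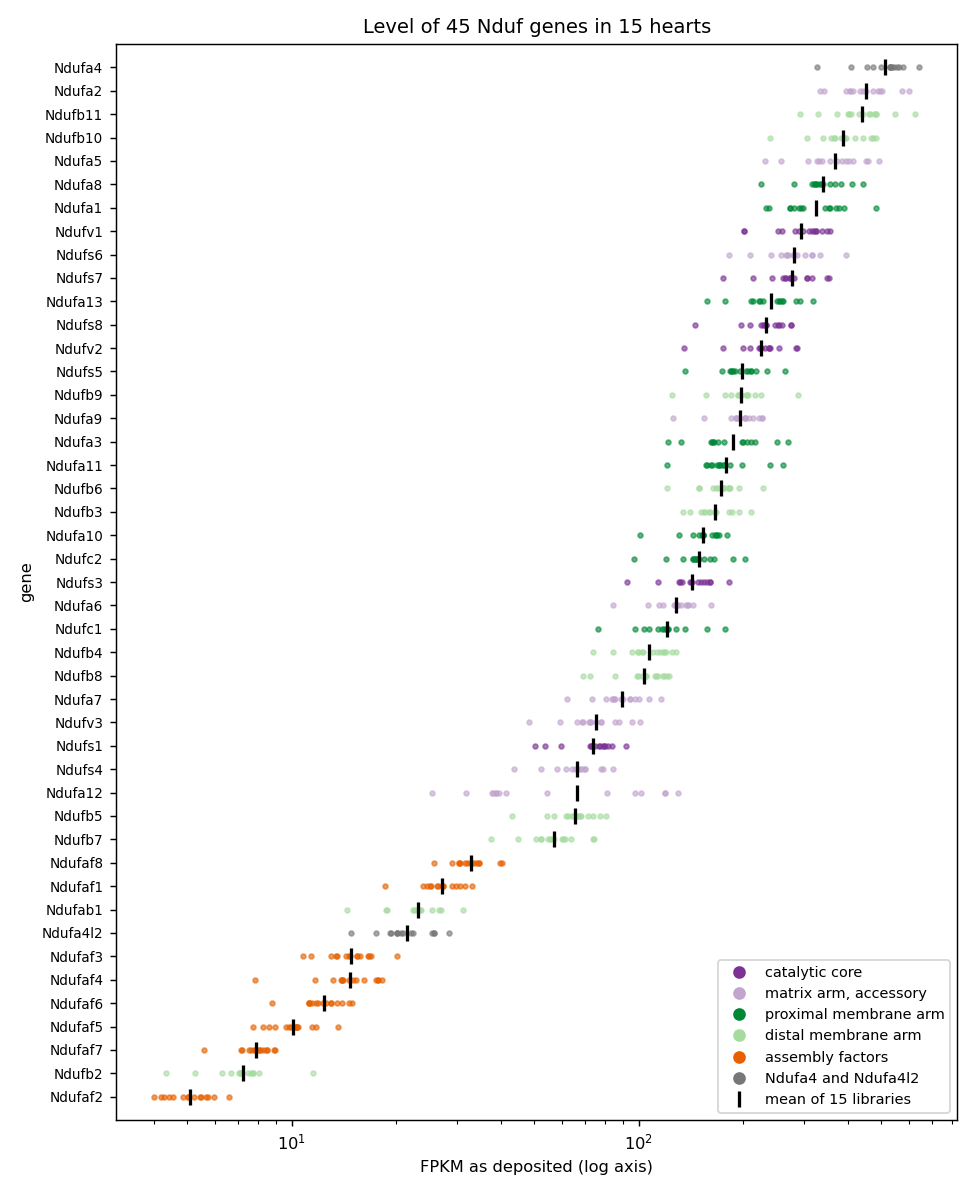
Deposited FPKM (log axis) of 45 of the 46 Nduf genes in the 15 libraries (points, coloured by part of the complex) and their mean (black bar), sorted by mean. The assembly factors lie at 5.10 to 32.8 FPKM, below 34 of the 36 subunits, and the points of Ndufa12 are spread more widely than those of its neighbours.

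The catalytic core was covered by 7 genes. Ndufv1, which carries the flavin where NADH is oxidised, was at 252, 324, 201, 258 and 337 FPKM in saline, 289, 320, 281, 201 and 309 FPKM in donepezil, and 323, 349, 297, 355 and 315 FPKM in encenicline. Saline 3 and donepezil 4 were both low, and the encenicline libraries lay in the upper part of the range without separating from the others. Ndufs1, the largest iron-sulphur subunit, was at 72.4, 78.6, 53.6, 73.3 and 59.5 FPKM in saline, 76.7, 80.0, 77.1, 50.3 and 81.4 FPKM in donepezil, and 91.7, 83.8, 74.6, 72.6 and 79.3 FPKM in encenicline. Here saline 5 was low, although its mean over all subunits was high.

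Of the membrane arm, Ndufa3 was at 176, 162, 121, 165 and 198 FPKM in saline, 163, 199, 169, 132 and 211 FPKM in donepezil, and 249, 216, 162, 268 and 206 FPKM in encenicline. Ndufa1, a small X-linked subunit needed for assembly of the membrane arm, was at 294, 290, 233, 280 and 355 FPKM in saline, 272, 353, 298, 237 and 343 FPKM in donepezil, and 378, 369, 273, 481 and 389 FPKM in encenicline. For both genes 4 of the 5 encenicline libraries lay above every saline library, with encenicline 3 as the exception. Ndufab1 was at 22.7, 23.6, 18.8, 22.3 and 18.7 FPKM in saline, 22.5, 23.4, 23.3, 14.4 and 23.1 FPKM in donepezil, and 26.6, 25.3, 23.1, 31.2 and 26.9 FPKM in encenicline. Again encenicline 3 was the 1 encenicline library within the range of the other groups. Reads of Ndufab1 may be shared with its processed pseudogene Ndufab1-ps, so its level is uncertain.

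Ndufb10 was at 387, 394, 306, 366 and 472 FPKM in saline, 358, 382, 339, 239 and 394 FPKM in donepezil, and 468, 421, 369, 481 and 444 FPKM in encenicline. Ndufc1 was at 128, 121, 97.3, 120 and 177 FPKM in saline, 107, 117, 120, 76.3 and 113 FPKM in donepezil, and 121, 118, 104, 157 and 136 FPKM in encenicline. Both had their lowest value in donepezil 4 and overlapped between all groups. Ndufb2 was at 6.29, 7.03, 5.25, 7.08 and 11.5 FPKM in saline, 7.12, 7.20, 7.70, 4.32 and 7.74 FPKM in donepezil, and 8.06, 7.64, 7.06, 7.48 and 6.66 FPKM in encenicline, with saline 5 above all the rest.

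Among assembly factors, Ndufaf4 was at 16.1, 14.1, 13.2, 14.6 and 15.0 FPKM in saline, 13.9, 13.9, 11.7, 7.85 and 15.3 FPKM in donepezil, and 17.4, 17.7, 13.9, 18.2 and 17.7 FPKM in encenicline. Encenicline 3 again lay apart from the other encenicline libraries, which were all above the donepezil and saline libraries. Ndufaf2, a chaperone related to the subunit Ndufa12, was at 5.24, 5.03, 4.54, 5.03 and 5.66 FPKM in saline, 4.85, 4.01, 4.27, 4.18 and 5.48 FPKM in donepezil, and 5.43, 5.95, 4.43, 6.59 and 5.73 FPKM in encenicline. Of its exon bases 65.6% are shared with a gene on the other strand, and whether the counting used strand is not given in the sources used here, so its level is uncertain. Ndufaf8 was at 33.5, 30.3, 28.8, 33.1 and 32.6 FPKM in saline, 30.6, 40.2, 30.3, 25.6 and 34.6 FPKM in donepezil, and 31.9, 34.6, 31.5, 39.7 and 34.1 FPKM in encenicline, without separation of the groups.

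Ndufa4 had the highest mean level of all members, 513 FPKM, and its libraries ran from 410 to 553 FPKM in saline, 326 to 562 FPKM in donepezil and 453 to 642 FPKM in encenicline. Its paralog Ndufa4l2, known as a hypoxia-induced gene that lowers complex I activity, was at 20.1, 25.4, 25.8, 20.6 and 28.4 FPKM in saline, 22.1, 14.8, 20.1, 20.9 and 17.4 FPKM in donepezil, and 22.3, 19.2, 19.3, 25.7 and 20.1 FPKM in encenicline. Saline and donepezil overlapped, since saline 1 and saline 4 lay below donepezil 1.

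No member passed the test in any of the 3 comparisons (limma with a mean-dependent variance prior on log2(FPKM + 0.5), two-sided, Benjamini-Hochberg adjusted p under 0.05 over 13396 genes). For donepezil against saline 0 of 46 members passed, beside 2.12% of all genes tested, for encenicline against saline 0 of 46 beside 0%, and for encenicline against donepezil 0 of 46 beside 0.933%. With limma voom on the recovered reads the count of members was also 0 in each. At an unadjusted p under 0.05 there were 1, 5 and 11 of 46 members, beside 16.1%, 9.22% and 15.0% of all genes. No member had its libraries fully apart between 2 groups in any comparison, beside 3.90%, 1.69% and 4.07% of all genes. In bulk tissue, fewer cells of a type and less RNA per cell cannot be told apart.

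For donepezil against saline the member of smallest p was Ndufa4l2, at 19.1 ± 2.95 FPKM in donepezil and 24.1 ± 3.57 FPKM in saline (SD, n = 5 each). Its log2 difference was -0.33 (SE 0.12, limma adjusted p = 0.187). Ndufc1 followed the same direction at -0.26 (SE 0.16, limma adjusted p = 0.465) and Ndufaf4 at -0.24 (SE 0.14, limma adjusted p = 0.429). Without donepezil 4, Ndufa4l2, Ndufc1 and Ndufaf4 stood at -0.37, -0.14 and -0.09 (limma adjusted p = 0.140, 0.644 and 0.646). Of the members, 38 had a lower and 8 a higher mean log2 value in donepezil, with donepezil 4 included. With that library left out, 27 of 46 were higher, beside 6773 of 13294 genes tested. The median log2 difference was -0.08 over the subunits and -0.11 over the assembly factors, against -0.00 over all genes tested. Without donepezil 4 these medians were 0.05 and -0.04, so on the deposited scale the direction for the subunits rests on that library, whose fibroblast marker sum was the highest of the 15. Leaving out saline 3 instead moved them the other way, to -0.14 and -0.17. With equal FPKM sums the medians were -0.16 and -0.19, against -0.07 over all genes, and with donepezil 4 also left out, -0.11 and -0.19, against -0.13. The part of the marker differences of donepezil 4 in the result was not tested.

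For encenicline against saline the largest differences of the named members were those of Ndufa3, Ndufa1 and Ndufab1. Ndufa3 was at 220 ± 41.2 FPKM in encenicline and 165 ± 28.2 FPKM in saline (SD, n = 5 each). Its log2 difference was 0.42 (SE 0.16, limma adjusted p = 0.514), beside Ndufa1, at 0.37 (SE 0.15, limma adjusted p = 0.514), and Ndufab1, at 0.32 (SE 0.13, limma adjusted p = 0.514). By part of the complex, mean log2 values were higher in encenicline for 7 of 7 core genes, 8 of 9 of the matrix arm, 6 of 9 of the proximal membrane arm, 11 of 11 of the distal membrane arm and 8 of 8 assembly factors. In the fit without donepezil 4, 6821 of 13294 genes tested and 43 of 43 nuclear subunits of complexes II to V were higher. Of the distal arm, Ndufb2 was lower as a mean of FPKM, at 7.38 against 7.43 FPKM. The median log2 difference was 0.18 over the subunits and 0.12 over the assembly factors, against 0.00 over all genes. Leaving out 1 library gave 0.10 (saline 3) to 0.23 (encenicline 3) for the subunits. For the assembly factors it gave 0.08 (encenicline 4) to 0.16 (encenicline 3). Cardiomyocyte markers had a median of 0.17 (5 of 6 higher), fibroblast markers of -0.71 (4 of 5 lower) and erythroid markers of -1.10 (3 of 3 lower, all at an unadjusted p under 0.05), none passed at an adjusted p under 0.05, and their part in the result was not tested. Rescaling the columns to equal FPKM sums moved the median of all genes to -0.13, that of the subunits to 0.01 and that of the assembly factors to -0.05. Relative to all genes the subunits then stood 0.15 and the assembly factors 0.09 higher. Of the named members, Ndufaf8, Ndufaf2, Ndufa4 and Ndufb2 changed from positive to negative values on rescaling.

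For encenicline against donepezil all 46 members had the higher mean in encenicline, in FPKM and in log2 values. Without donepezil 4, 45 of 46 were higher in log2 values. Beside them were 6839 of 13294 genes tested and 43 of 43 nuclear subunits of complexes II to V. The members moved together from library to library, as described below, so these are not 46 separate observations. Ndufaf4 had the smallest p, at 17.0 ± 1.77 FPKM in encenicline and 12.5 ± 2.92 FPKM in donepezil (SD, n = 5 each). Its log2 difference was 0.45 (SE 0.14, 95% interval 0.15 to 0.75, limma adjusted p = 0.141). Ndufb10 stood at 0.36 (SE 0.14, limma adjusted p = 0.233) and Ndufaf2 at 0.27 (SE 0.10, limma adjusted p = 0.210). Without donepezil 4, Ndufaf4, Ndufb10 and Ndufaf2 stood at 0.30, 0.24 and 0.25 (limma adjusted p = 0.174, 0.386 and 0.343). The median log2 difference was 0.24 over the subunits and 0.21 over the assembly factors, against 0.00 over all genes, and 0.13 and 0.11 without donepezil 4. Cardiomyocyte markers had a median of 0.20 (6 of 6 higher), fibroblast markers of -0.92 (5 of 5 lower) and erythroid markers of -0.58 (3 of 3 lower), and without donepezil 4 these were 0.16, -0.09 and -0.70. No marker of these lists passed at an adjusted p under 0.05, and their part in the result was not tested. After rescaling to equal FPKM sums the medians were 0.16 and 0.12, against -0.07 over all genes. Each group enters 2 of the 3 comparisons, which therefore share libraries and are not independent.

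**Figure D2:**
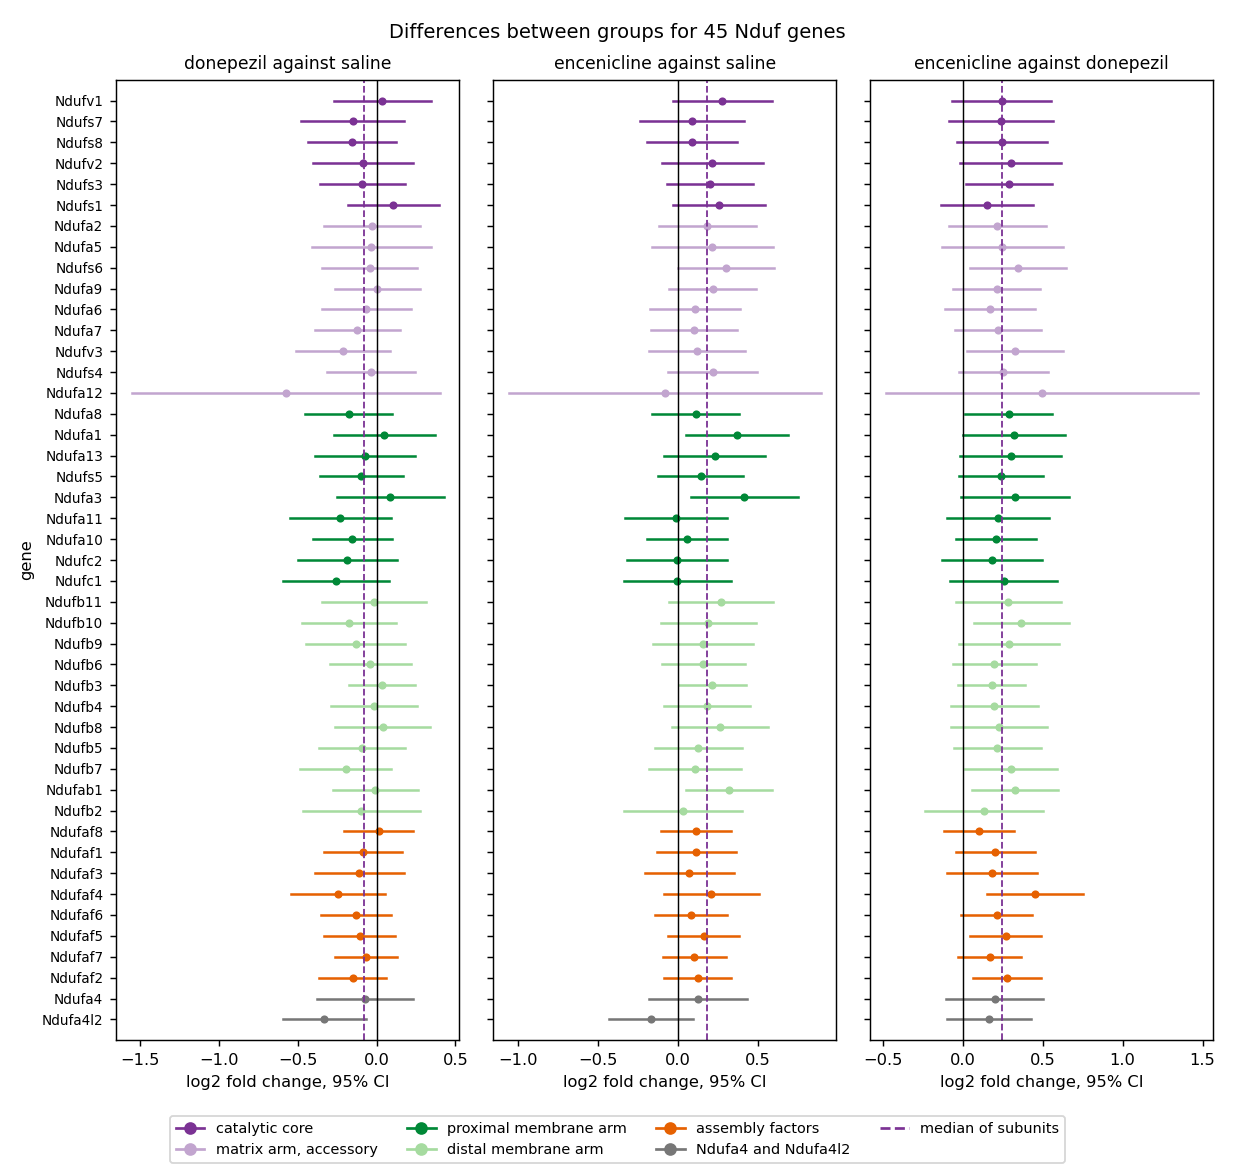
Log2 difference between groups (points) and its 95% confidence interval from limma (lines) for 45 of the 46 Nduf genes in the 3 comparisons, coloured by part of the complex; the dashed line marks the median of the subunits (-0.08, 0.18 and 0.24). Most intervals include 0, those of Ndufa12 are the widest, and no gene passed at an adjusted p under 0.05.

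The difference between subunits and assembly factors was not tested. The subunit median was 0.03, 0.06 and 0.04 log2 units above the assembly factor median in donepezil against saline, encenicline against saline and encenicline against donepezil. Without donepezil 1 and encenicline 1, the libraries with conflicting labels, the subunit medians were -0.08, 0.17 and 0.26 and the assembly factor medians -0.14, 0.13 and 0.25. With the groups of the treatment field the subunit medians were -0.01, 0.18 and 0.21. No member passed under either.

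Other genes of the pathway did not pass the test either, in limma or in voom. Of the 43 tested nuclear subunits of complexes II to V, 0 passed in any comparison (0, 1 and 7 at an unadjusted p under 0.05 in the order used above), with medians of -0.07, 0.18 and 0.25, beside the -0.08, 0.18 and 0.24 of the complex I subunits. Of 9 tested assembly factors of complex I with other names, among them Ecsit, Timmdc1 and Foxred1, 0 passed (0, 1 and 1 unadjusted), with medians of -0.07, 0.07 and 0.16. Of the 7 mitochondrially encoded subunits 0 passed (0, 0 and 0 unadjusted), with medians of 0.13, 0.26 and 0.10 and a range of -0.33 (mt-Nd3) to 0.74 (mt-Nd4l) in donepezil against saline. Of 10 regulators of mitochondrial genes 0 passed (0, 0 and 2 unadjusted), and the extremes were Ppargc1a, a coactivator of mitochondrial biogenesis, at -0.47 and Perm1, a muscle regulator of oxidative genes, at 0.45 in encenicline against donepezil (limma adjusted p = 0.472 and 0.181).

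The members moved together from library to library. Donepezil 4 held the lowest value of 41 of the 46 members, 33 of 36 subunits and 7 of 8 assembly factors among them, and encenicline 4 the highest value of 30. The exceptions at the low end were 3 subunits lowest in saline 3, and Ndufaf2 and Ndufa4l2, lowest in donepezil 2. The share of all genes lowest or highest in these libraries was not counted, and donepezil 4 had the lowest FPKM sum (361640). These counts therefore do not separate the members from other genes of the same library. The mean deviation of the 36 subunits from their own 15-library means was -0.01, 0.06, -0.34, -0.06 and 0.21 log2 units in saline, -0.05, 0.06, -0.03, -0.59 and 0.04 in donepezil, and 0.14, 0.16, -0.07, 0.34 and 0.14 in encenicline. For the 8 assembly factors it was 0.12, 0.01, -0.16, -0.00 and 0.01 in saline, -0.02, -0.03, -0.10, -0.45 and 0.04 in donepezil, and 0.10, 0.11, -0.09, 0.30 and 0.18 in encenicline. Saline 3 and donepezil 4 were low and encenicline 4 high in both sets, and saline 5 was high for the subunits but not for the assembly factors.

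**Figure D3:**
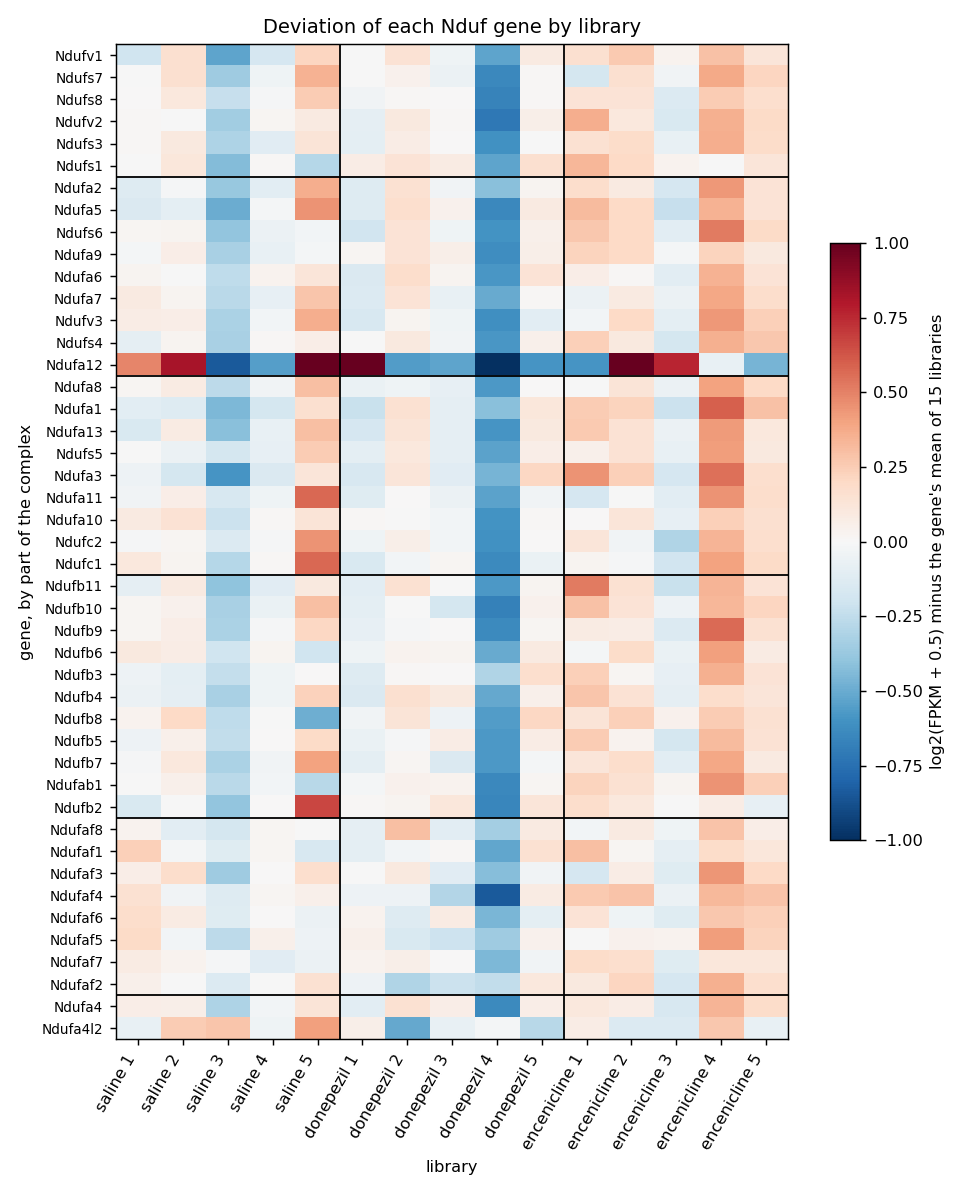
Deviation of 45 of the 46 Nduf genes (rows, by part of the complex) from their own means over 15 libraries (columns), in log2(FPKM + 0.5), with colours capped at -1 and 1. Donepezil 4 is low and encenicline 4 high for most genes, and Ndufa12 follows its own pattern.

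The spread of this subunit mean between libraries was 0.224 log2 units (SD, n = 15), 0.161 without donepezil 4 and 0.140 after rescaling the columns to equal FPKM sums. With equal sums donepezil 4 was still the lowest library for the subunits, at -0.26, but saline 5 at 0.31 took the place of encenicline 4 (0.21) as the highest. For the assembly factors with equal sums, donepezil 4 at -0.14 was no longer the lowest, donepezil 2 being at -0.17. The FPKM sums include the mitochondrially encoded genes. Of these, mt-Nd1 alone held 16208 of 361640 FPKM in donepezil 4 and 33296 of 524826 FPKM in encenicline 1. Values of nuclear genes at equal sums therefore also depend on the level of the mitochondrially encoded genes. With equal sums all 5 donepezil libraries lay below 0 for both sets. For the assembly factors all 5 saline libraries then lay above 0 (0.03 to 0.15) while encenicline ranged from -0.10 to 0.18. For donepezil against saline on this scale the median over all genes tested was -0.07, beside -0.16 for the subunits and -0.19 for the assembly factors. Without donepezil 4 it was -0.13, beside -0.11 and -0.19. The subunits were then lowered no more than all genes, and only the assembly factors lay below the median of all genes. Nuclear subunits of complexes II to V ran beside the complex I subunits, at -0.55 in donepezil 4 and 0.34 in encenicline 4 on the deposited scale. In donepezil 4 the marker sums of fibroblasts (740 FPKM) and macrophages (158 FPKM, 4 of 4 detected) were the highest of the 15 libraries. That of cardiomyocytes (9810 FPKM) was the lowest. The natriuretic peptide gene Nppa (857 FPKM, next saline 3 at 287 FPKM) and the myosin gene Myh7 (172 FPKM, next saline 5 at 36.8 FPKM) were also highest there. Nppb was not, at 477 FPKM against 512 FPKM in saline 3. The part of these differences in the low subunit mean was not tested.

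**Figure D4:**
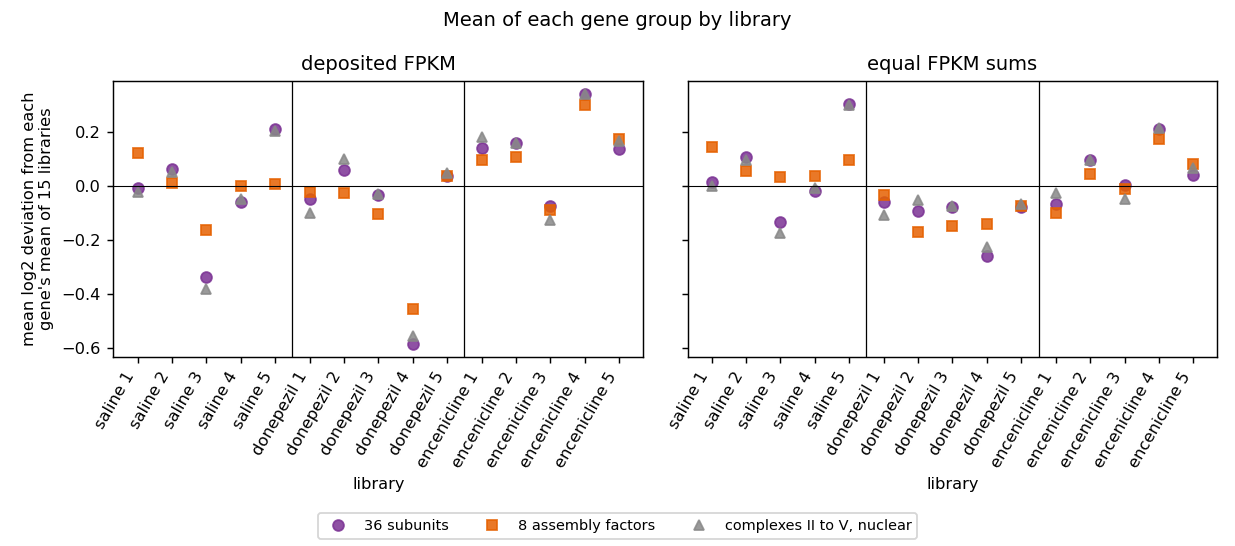
Mean log2 deviation of the 36 subunits, the 8 assembly factors and the nuclear subunits of complexes II to V from each gene's 15-library mean, by library, on the deposited scale (left) and after rescaling the columns to equal FPKM sums (right). Donepezil 4 lies at -0.59 for the subunits on the left and at -0.26 on the right, and the spread between libraries shrinks from 0.224 to 0.140 log2 units.

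Once the mean of the other subunits in the same library was taken off, the SD of a subunit over the 15 libraries had a median of 0.0865 log2 units, down from 0.247 before, over the 35 subunits other than Ndufa12. Ndufs3, a core subunit with an early place in assembly, was the closest follower, with 0.041 left, and Ndufs8, an iron-sulphur core subunit, kept 0.061. Outside the complex, Ndufa4 kept 0.053. The least close were Ndufb8, with 0.206 left, and Ndufs1, with 0.190. For the 8 assembly factors the median left was 0.146, down from 0.191, so taking off the subunit mean removed less of their spread. They also had fewer reads than most subunits, 178 (Ndufaf2) to 1138 (Ndufaf4) per library against 3485 to 6204 for Ndufs3. Only a few subunits were as low, such as Ndufb2 at 422 to 1082. The part of read depth in this contrast, and in the correlations below, was not tested. Pearson correlations with the mean of the other subunits over the 15 libraries, which share library scaling and donepezil 4, ran from 0.63 to 0.98 for the 35 subunits other than Ndufa12 (median 0.93) and from 0.71 to 0.86 for the assembly factors. Without donepezil 4 they ran from 0.35 (Ndufb8) to 0.97 (median 0.88) and from 0.47 to 0.80 (median 0.65), and Ndufs1 fell from 0.66 to 0.41. For Ndufa12 r was 0.37, and 0.13 without donepezil 4. Ndufa4l2 was the member least like the subunits, with r = 0.06.

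Saline 5 departed from the other libraries in the proportions of the subunits. Relative to the mean of the other subunits in that library, Ndufb8 was at -0.69, Ndufs1 at -0.49, Ndufab1 at -0.47 and Ndufb6 at -0.39 log2 units. Ndufb2 was at 0.50, Ndufc1 at 0.40 and Ndufa11 at 0.40. Saline 5 was not the only such library. In encenicline 1, whose treatment field names donepezil, Ndufb11 was at 0.37, Ndufa3 at 0.30, and Ndufs7 and Ndufa11 at -0.34. In FPKM, Ndufb8 was at 105, 117, 85.3, 102 and 72.5 in saline, 99.4, 111, 98.7, 69.2 and 118 in donepezil, and 112, 120, 105, 122 and 113 in encenicline. Saline 5 and donepezil 4 were the lowest libraries for Ndufb8, while the mean over all subunits was high in saline 5 and low in donepezil 4. The mitochondrially encoded complex I genes were at -0.61 log2 units on average in saline 5 against -0.42 to 0.32 in the other libraries, and much of that was mt-Nd4l, at 261 FPKM. Without mt-Nd4l their average was -0.32 in saline 5, and donepezil 4 was the lowest library, at -0.63.

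Ndufa12, an accessory subunit of the matrix arm, did not follow the rest. It was at 80.7, 102, 31.7, 38.9 and 130 FPKM in saline, 119, 38.7, 39.5, 25.4 and 37.8 FPKM in donepezil, and 37.9, 119, 97.4, 54.2 and 41.3 FPKM in encenicline, a 5.12-fold range. It was high in 6 libraries (80.7 to 130 FPKM, 3 of 5 saline, 1 of 5 donepezil and 2 of 5 encenicline) and low in 9 (25.4 to 54.2 FPKM). Relative to the geometric mean of the other 8 accessory subunits of the matrix arm, it was at 0.51 to 0.80 in the high libraries and 0.21 to 0.26 in the low ones, with none between. The high donepezil library is donepezil 1, whose treatment field names saline. These sets of libraries were seen in the data and are not groups of the study, so they were not tested.

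The SD of Ndufa12 over the libraries was 0.80 log2 units before and 0.75 after the mean of the other subunits was taken off. Its log2 differences were -0.58 (SE 0.46) for donepezil against saline, -0.08 (SE 0.46) for encenicline against saline and 0.49 (SE 0.46) for encenicline against donepezil, none of which passed (limma adjusted p = 0.60, 0.96 and 0.63). The read counts behind it were 691 to 3410 per library. Its neighbours on chromosome 10 varied less, Nr2c1 1.59-fold and Tmcc3 2.24-fold over the 15 libraries, at lower levels of up to 2.19 and 14.8 FPKM. Ndufaf2, related to it in sequence, varied from 4.01 to 6.59 FPKM.

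**Figure D5:**
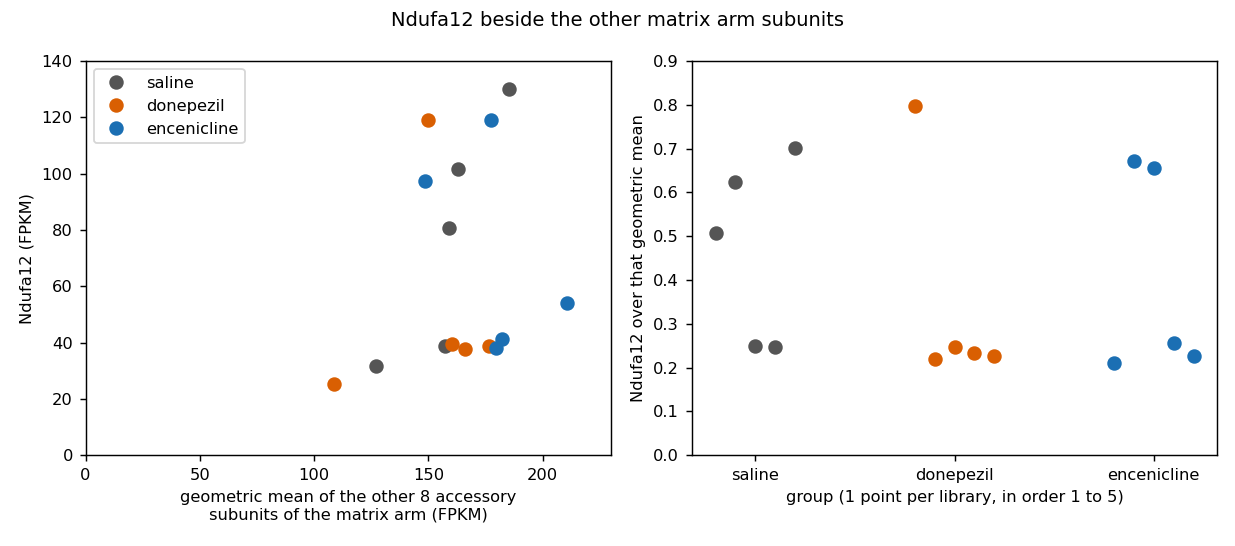
Left, FPKM of Ndufa12 against the geometric mean FPKM of the other 8 accessory subunits of the matrix arm, 1 point per library, coloured by group. Right, the ratio of these by group, with 6 libraries at 0.51 to 0.80 and 9 at 0.21 to 0.26, and both kinds present in every group.

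Some levels carry the uncertainty of shared sequence. Of the 46 members, 19 share exon bases with another gene in GENCODE M21, 17 with one on the other strand and 3 with one on the same strand, and in 7 the shared part is over 10% of the exon bases. Ndufb6 (39.0%) and Ndufa13 (30.0%) were, after Ndufaf2, the members with the largest shared part. The pseudogenes Ndufab1-ps, Ndufb4c and Ndufs6b had mean levels of 77.5, 8.56 and 4.09 FPKM, so reads of Ndufab1, Ndufb4 and Ndufs6 could be split between copies. The members lie on 17 chromosomes, with Ndufa1 and Ndufb11 on X. Ndufa12 is at chr10:94198720-94221443, Ndufaf4 at chr4:24898083-24905001 and Ndufs3 at chr2:90894634-90904827 in the deposited table (GRCm38).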

How the data were processed

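Members and lists were chosen with earlier results of these data known. The build GRCm38 and the tools DESeq 1.8.3, featureCounts 1.5.0-p3 and HISAT are named in the submitters' processing notes, and their role is not given in the sources used here. The authors deposited FPKM for 54532 genes in 15 libraries. Times gene length and 1 constant per library, the deposited FPKM values were whole reads to within 0.05 reads in 100% of nonzero values, and the implied library size was 0.925 to 1.15 times the recovered total. Symbols turned into dates (27) were recovered from identifiers. All sample columns were mapped, with 0 left over.

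The filter kept 13396 genes, those reaching 0.5 FPKM in 5 or more of the 15 libraries. Log2(FPKM + 0.5) was fitted to all 15 libraries with limma 3.58.1 in R 4.3.3 (trend), without a block, and p-values were adjusted by Benjamini-Hochberg within each contrast. Fold changes on this scale understate changes of low genes. The code was tested on simulated data. Named members were the 3 of smallest p in each comparison, Ndufv1, Ndufs1, Ndufa4, Ndufa4l2, the lowest subunit and the highest and lowest assembly factor; 1 member is not reported here on its own and enters only the sums, medians and counts. Ndufa12, Ndufb8 and others with values of a single library or contrast were chosen after their values were seen. In all, 29 alternatives were run: pseudocounts 0.1 and 1, no filter and 2 FPKM, equal FPKM sums with and without mitochondrially encoded genes, median ratios, quantiles, the 10 libraries compared, a replicate block, voom on recovered reads, both label alternatives, each library left out, and equal sums with donepezil 4 left out. No date or sequencing batch is given in the labels. Promoters are from RefSeq on GRCm38.p6, transcripts and exons from GENCODE M21. Python 3.11.15 with pandas 2.3.3 was used for the descriptions.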

Additional observations from a re-analysis of the deposited data

Results flagged for a closer look

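In groups of 5 libraries, 1 library lay far from the other 4 in 7 of 54 groups checked, where chance gives about 1 in 20 for a single group. The groups include members that move together and means over these members, so they are not independent. The count can therefore not be set against that chance, and most of the far values were of donepezil 4. Donepezil 4 was the far library, on the low side, for Ndufab1 (14.4 FPKM, the next at 22.5), Ndufs1 (50.3 FPKM) and Ndufb2 (4.32 FPKM). It was also far for the mean deviation of the subunits (-0.59 log2 units) and of the assembly factors (-0.45). Encenicline 3 was low for Ndufaf4, at 13.9 FPKM against 17.4 FPKM in the next. Donepezil 1, whose treatment field names saline, was high for Ndufa12, at 119 FPKM against at most 39.5 FPKM in the other donepezil libraries.

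Outside the members, 4 Nduf rows that are not protein coding carried signal. Ndufab1-ps, a processed pseudogene, had a mean of 77.5 FPKM, above the 23.1 FPKM of Ndufab1 itself on the deposited length, and Ndufb1-ps, annotated as a long noncoding RNA, had a mean of 62.9 FPKM. Ndufb4c was at 8.56 FPKM and Ndufs6b at 4.09 FPKM.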

How the results depend on the processing

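No member passed in any of the 29 alternatives, where the smallest limma adjusted p of a member was 0.0514 for donepezil against saline (equal sums with donepezil 4 left out, chosen after seeing the data), 0.219 for encenicline against saline and 0.0812 for encenicline against donepezil. The count of all genes called for donepezil against saline, 284, became 119 with no filter, 160 with equal FPKM sums, 63 with only the 10 libraries, 87 without donepezil 1 and encenicline 1 and 0 with the groups of the treatment field. For encenicline against donepezil, 125 became 46, 53, 27 and 0 with no filter, equal sums, without those libraries and with the field groups, and 193 with voom. Leaving out 1 library gave 105 (donepezil 1) to 408 (donepezil 4), 0 to 1 (donepezil 4) for encenicline against saline, and 48 (encenicline 2) to 178 (donepezil 5); saline 2, saline 4, donepezil 2 and donepezil 3 also moved the first by over 1.5 times, and donepezil 1, donepezil 2, encenicline 4 and encenicline 5 the last. The assembly factor median of encenicline against saline was -0.048 with equal sums, with or without donepezil 4. Mean FPKM per shortest and longest principal transcript was 89.2 and 9.28 for Ndufb2 and 22.4 for Ndufaf2, and the spread of the subunit mean was 0.140 with equal sums. The causes were not tested.

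Signs changed for differences near 0. For donepezil against saline these were, with equal sums, Ndufa1 (-0.032), Ndufv1 (-0.045), Ndufaf8 (-0.065) and Ndufb8 (-0.040); without mitochondrially encoded genes, Ndufaf8 (-0.011); with quantiles, Ndufv1 (-0.016) and Ndufaf8 (-0.0028); and with the field groups, Ndufab1 (0.025). For encenicline against saline they were, with equal sums, Ndufaf2 (-0.029), Ndufa4 (-0.040), Ndufb2 (-0.12) and Ndufaf8 (-0.048); without mitochondrially encoded genes, Ndufb2 (-0.054); without donepezil 1 and encenicline 1, Ndufc1 (0.011) and Ndufa12 (0.10); and with the field groups, Ndufc1 (0.050). Leaving out 1 library gave, for donepezil against saline, -0.028 to 0.13 (Ndufa1), -0.018 to 0.18 (Ndufa3), -0.15 to 0.062 (Ndufa4), -0.051 to 0.12 (Ndufab1), -0.068 to 0.092 (Ndufaf8), -0.20 to 0.064 (Ndufb2), -0.057 to 0.16 (Ndufb8) and -0.071 to 0.15 (Ndufv1); for encenicline against saline, -0.35 to 0.16 (Ndufa12), -0.071 to 0.20 (Ndufb2) and -0.096 to 0.12 (Ndufc1); and for encenicline against donepezil, -0.013 to 0.18 (Ndufb2).

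Deviations of same-numbered libraries from their group means correlated at -0.09 to 0.20, over 0.1 in 4 of 15 pairs. Differently numbered libraries were not set beside them, so these values cannot tell whether replicate numbers pair the libraries. With a replicate block, 298, 0 and 114 genes were called and 0 members. The 5 libraries per group limit the precision: the SE of a member was mostly 0.10 to 0.16 log2 units.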
